A study of Mus musculus with 18 samples.

Results

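The comparison described here is dexamethasone against control in the mouse retina 7 days after injection, read over every gene that the arrays measured. It takes 6 of the 18 arrays of the series: 3 labelled DEX day 7 and 3 labelled BSS day 7. All mice were male C57BL6/J animals of 2 months of age, and each received a single intravitreal injection of dexamethasone (DEX) or of the control solution (BSS). The other groups of the series are triamcinolone (TAA) at day 7 and all 3 treatments at day 30, with 3 arrays in each of the 6 groups. They enter here only through the shared estimate of spread and through 2 tests that compare them with the dexamethasone arrays. The labels give no dose, and they do not say whether a sample is 1 eye, 2 eyes of a mouse or a pool of mice. The 3 samples of a group are described as biological replicates.

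Probe sets that name exactly 1 gene numbered 34945 of 45101, and 1 probe set was kept for each of 18194 genes. Every value is a log2 signal relative to the median of that probe set over the 18 arrays. A value of 0 is therefore the middle array and not an absence of RNA, no expression level can be read, and the retinal identity of the samples could not be checked from the levels of marker genes. Differences between groups are on the log2 scale with the standard error (SE) of the limma fit and n = 3 arrays per group. In whole retina, fewer cells of a type and less RNA per cell cannot be told apart.

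Glucocorticoids such as dexamethasone bind the glucocorticoid receptor, which moves to the nucleus, binds DNA and induces genes such as Fkbp5, Tsc22d3, Per1, Sgk1 and Zbtb16, while damping many inflammatory genes. In the eye they are used against macular oedema and inflammation. Müller cells, the main glia of the retina, carry the receptor and also respond to injury: in reactive gliosis they raise intermediate filaments such as Gfap and Vim together with acute-phase genes, in part through cytokines of the interleukin 6 family and the transcription factor Stat3. Microglia are the resident immune cells of the retina, and interferons induce a shared antiviral program in many cell types.

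Promoter sequences are shown for 4 genes that stand for these programs, as printed in RefSeq for mouse build GRCm38.p6, each the 250 bases before the transcription start on the strand of the gene. Capitals mark matches to a motif. These are TTCNNNGAA, the form bound by STAT factors, in Socs3 (chr11:117969367-117969616, minus strand), the half-sites GNACA and TGTNC with any 3 bases between them, the form bound by the glucocorticoid receptor, in Serpina3n (chr12:104406458-104406707, plus strand) and Sgk1 (chr10:21993640-21993889, plus strand), and GAAA repeated after any 2 bases, the form found in interferon response elements, in Ifit1 (chr19:34640639-34640888, plus strand).
Socs3: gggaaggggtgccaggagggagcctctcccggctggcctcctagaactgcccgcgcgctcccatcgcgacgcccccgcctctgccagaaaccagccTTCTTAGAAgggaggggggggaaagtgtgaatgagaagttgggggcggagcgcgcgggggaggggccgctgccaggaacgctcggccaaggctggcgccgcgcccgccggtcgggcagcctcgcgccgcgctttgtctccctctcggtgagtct
Serpina3n: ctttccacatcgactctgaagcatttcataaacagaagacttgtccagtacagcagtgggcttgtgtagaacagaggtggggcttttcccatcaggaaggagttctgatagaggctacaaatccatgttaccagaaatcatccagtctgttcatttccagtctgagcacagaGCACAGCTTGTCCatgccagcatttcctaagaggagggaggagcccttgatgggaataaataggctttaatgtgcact
Sgk1: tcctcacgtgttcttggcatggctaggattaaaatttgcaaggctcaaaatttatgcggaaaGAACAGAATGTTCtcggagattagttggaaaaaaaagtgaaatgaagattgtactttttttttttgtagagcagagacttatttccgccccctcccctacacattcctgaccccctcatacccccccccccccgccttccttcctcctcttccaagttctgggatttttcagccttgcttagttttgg
Ifit1: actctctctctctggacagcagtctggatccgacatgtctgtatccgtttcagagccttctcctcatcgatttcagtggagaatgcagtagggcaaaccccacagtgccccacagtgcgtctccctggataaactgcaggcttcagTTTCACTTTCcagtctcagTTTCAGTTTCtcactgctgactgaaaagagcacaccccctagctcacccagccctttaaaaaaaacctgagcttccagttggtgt
Both strands were searched, and the STAT-type and interferon-type letters can overlap each other. The glucocorticoid-type letters lay in 0.387% of 32851 promoters and in 6 of 39 promoters (5 of 26 genes) of the glucocorticoid target list. In the reactive gliosis list 1 of 21 promoters held them and 3 of 21 held the STAT-type letters, which lay in 7.02% of all promoters. The STAT-type letters also lay in 6 of 39 promoters of the glucocorticoid targets and in 6 of 25 of the interferon list. For the interferon list 9 of 25 promoters held the interferon-type letters, against 2.98% of all. A match is a description of the letters and not evidence of binding, and these arrays measured no binding.

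No gene passed an adjusted p of 0.05 in DEX against BSS at day 7 (limma with Benjamini-Hochberg adjustment over 18194 genes, 0% called, smallest adjusted p 0.79). At an unadjusted p under 0.05 there were 711 genes, 3.91% of all, where 909.7 would be counted if no gene differed; 509 of them (2.8%) were higher with DEX and 202 (1.11%) lower. The groups did not overlap, with every DEX array above or below every BSS array, for 2600 genes (14.3%): 1312 higher (7.21%) and 1288 lower (7.08%). These shares are the background against which each list of genes is read. With array weights, which among these 6 arrays count BSS replicate 1 and DEX replicate 3 least, 164 genes passed the adjusted threshold instead of 0. In simulated data of the same design, 35.2% of genes changed by a log2 of 0.5 were called, and 86% of genes raised by a log2 of 1. There 200 genes picked at random were changed, with independent noise of each gene's own spread. These rates are averages over such genes and do not hold for genes of wide spread, such as Edn2 and Serpina3n below. The values that follow are therefore descriptions of 6 arrays, and none of the genes named passed the adjusted test against BSS at day 7 in the fit over 18 arrays.

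The 6 arrays were not equally alike. Over the 18194 genes, the control replicate 1 array correlated at -0.17 with replicate 2 and at -0.21 with replicate 3. Control replicates 2 and 3 correlated at 0.46 with each other. The correlation of control replicate 1 with DEX replicate 1 was 0.34. Correlations among the 3 DEX arrays were 0.21, 0.32 and 0.49. Control replicate 1 also stood alone in melanosome genes, described with the neighbouring tissues, and it is named below where a value rests on it.

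**Figure D1:**
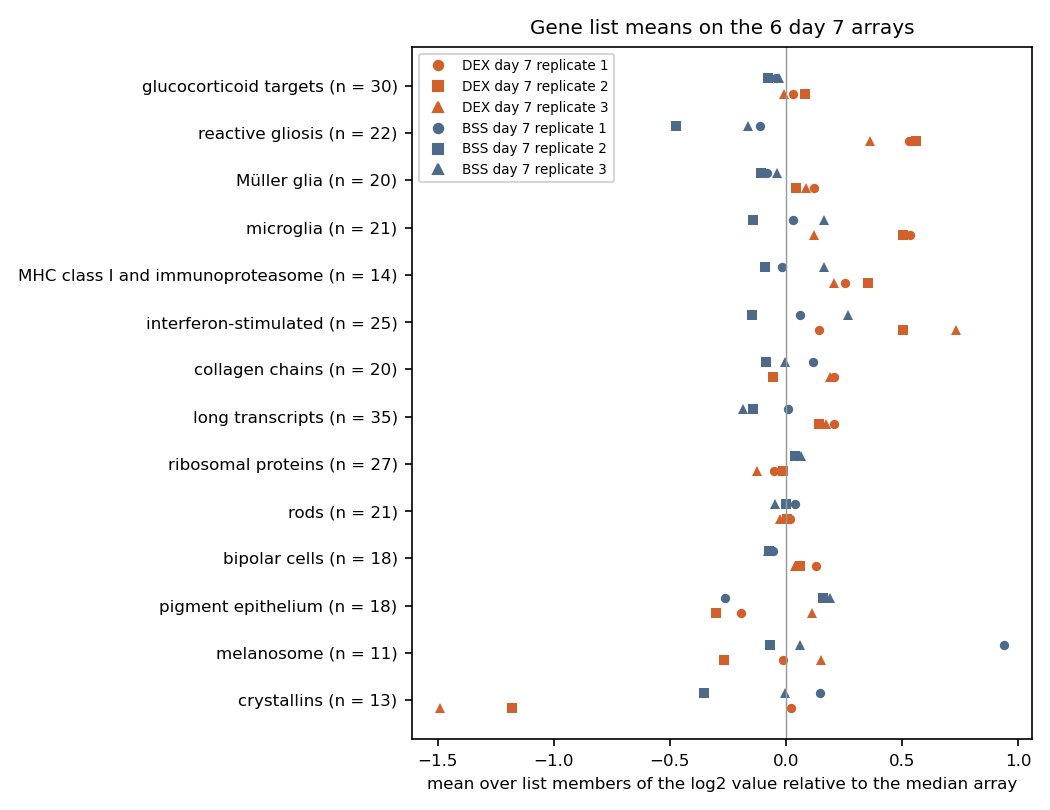
Mean log2 value over the members of 14 gene lists (vertical axis, n measured genes) on each of the 6 arrays at day 7, relative to the median array (horizontal axis, log2); each point is 1 array, orange for DEX and blue for BSS, with the marker shape giving the replicate. The reactive gliosis means lie between 0.36 and 0.56 on the DEX arrays and between -0.47 and -0.11 on the BSS arrays, the melanosome mean of BSS replicate 1 stands alone at 0.94, and the crystallin means of DEX replicates 2 and 3 lie at -1.18 and -1.49.

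The receptor and its helpers differed little. All 7 measured genes of the receptor and chaperone list lay below 0 in DEX minus BSS, with a median of -0.07, where 48.4% of all genes lay above 0. Without control replicate 2 the median was 0.00 and 4 of the 7 lay above 0, so this direction rests on that array, and 2 of the 7 lay above 0 after quantile normalization. Nr3c1, which encodes the glucocorticoid receptor, read 0.17, -0.24 and 0.10 on the BSS arrays and -0.30, -0.26 and -0.10 on the DEX arrays. Its difference was -0.23 ± 0.14 (SE, 95% interval -0.52 to 0.06), and the groups overlapped. Over its 6 probe sets the difference ranged from -0.23 to 0.29. Hsp90aa1, the heat shock protein that holds the receptor ready for hormone, was the member whose DEX arrays all lay below the controls (-0.13 ± 0.11).

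Genes that glucocorticoids induce had no common direction at day 7. Of 30 targets measured, 16 lay above 0 and 14 below with a median of 0.04, and none reached an unadjusted p of 0.05. Groups did not overlap for 6 higher members (20%) and 2 lower members (6.67%). The median standard deviation of these genes was 0.12 on the BSS arrays and 0.15 on the DEX arrays but 0.35 on the TAA day 7 arrays, which enter the estimate of spread. In a limma fit to the 6 arrays alone, 5 members were higher at an unadjusted p under 0.05 (16.7%, against 6.27% of all genes) and 2 lower (6.67%, against 3.47%): Cebpd, Bcl6, Mt1, Mt2 and Lcn2, and Sgk1 and Plin4.

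Fkbp5, a chaperone of the receptor that the receptor itself induces, read 0.05, -0.05 and -0.06 on the BSS arrays and 0.05, 0.19 and 0.13 on the DEX arrays. Control replicate 1 and DEX replicate 1 were alike, so the groups overlapped. The difference was 0.14 ± 0.29, with a 95% interval from -0.47 to 0.76. Tsc22d3, the leucine zipper protein that carries part of the anti-inflammatory action, differed by -0.07 ± 0.14, and this sign turned when DEX replicate 3 was left out. The clock gene Per1 differed by -0.15 ± 0.12 and the zinc finger factor Zbtb16 by 0.15 ± 0.16. None of these 4 stood beyond the spread of the arrays.

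Sgk1, a kinase that regulates ion channels and whose promoter is printed above, lay lower on every DEX array. It read -0.11, 0.09 and -0.00 on the BSS arrays and -0.25, -0.23 and -0.23 on the DEX arrays, a difference of -0.23 ± 0.11 (unadjusted p = 0.0548 by limma). The other lower member was Plin4, a lipid droplet coat protein (-0.25 ± 0.15). The 6 higher members were the metallothioneins Mt1 (0.28 ± 0.29) and Mt2 (0.49 ± 0.38), the repressor Bcl6 (0.41 ± 0.20), the phagocytosis receptor Mertk (0.17 ± 0.15), and Cebpd and Lcn2, which also belong to the reactive gliosis list. Targets known to respond within hours, such as Dusp1, a phosphatase that turns off stress kinases (-0.33 ± 0.22), and Ddit4, an inhibitor of growth signalling (-0.64 ± 0.42), lay below 0 with overlapping groups.

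**Figure D2:**
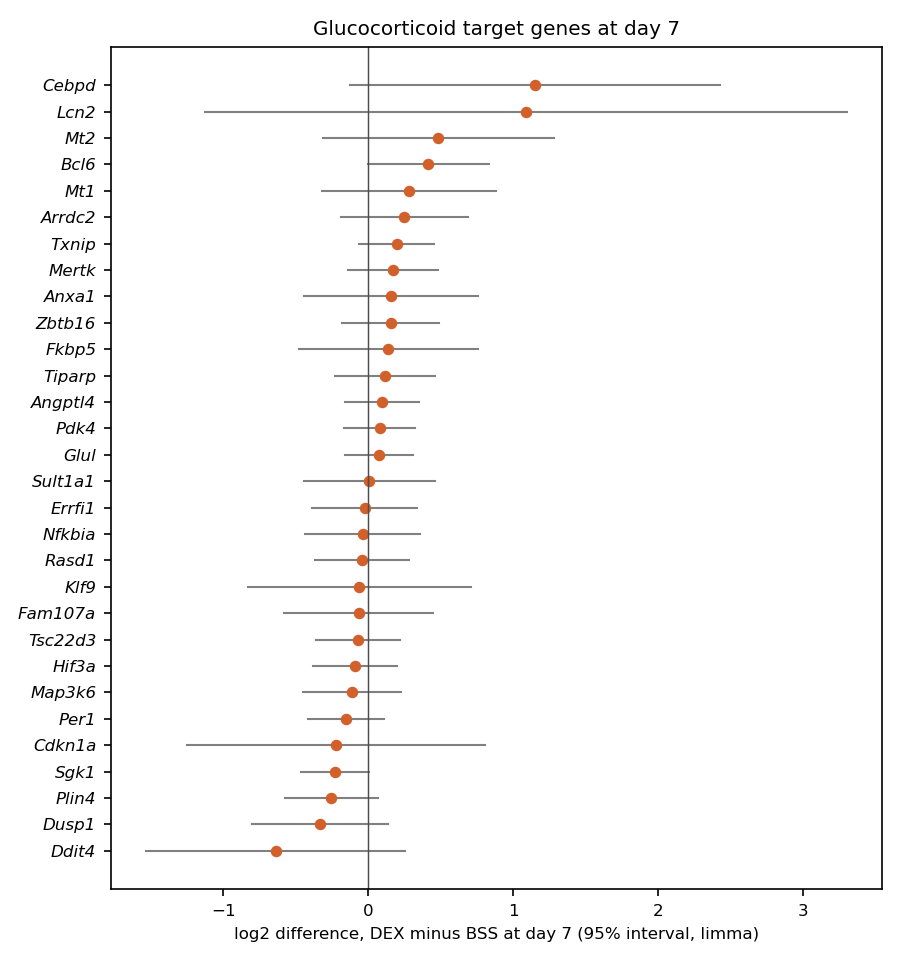
Log2 difference, DEX minus BSS at day 7 (horizontal axis), for the 30 measured glucocorticoid target genes (vertical axis); points are the limma estimates over 3 arrays per group and lines their 95% intervals. The intervals of all 30 genes include 0, with Cebpd highest at 1.15 and Ddit4 lowest at -0.64.

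Reactive gliosis genes were the list, of 44, with the largest share of members on which DEX and control arrays did not overlap. All 22 measured members lay above 0, with a median of 0.66, against a median of -0.00 over all genes. For 17 of 22 (77.3%) every DEX array lay above every BSS array, where 7.21% of all genes did so. An unadjusted p under 0.05 was reached by 5 members (2.8% of all genes did so in this direction). Control replicate 2 was the lowest array of the list, and without it the median was 0.56 and 17 of 22 did not overlap, against 10.6% of all genes. Without any other of the 6 arrays the count was 17 to 20, against 10.5% to 15.6% of all genes. The list was chosen with earlier results of these data known, so its direction is not independent evidence.

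Gfap, the intermediate filament that defines reactive glia, read -0.06, -0.76 and 0.11 on the BSS arrays and 0.77, 0.41 and 0.35 on the DEX arrays. Every DEX array lay above the highest control, and control replicate 2 stood far below the other controls. The difference was 0.75 ± 0.40 (unadjusted p = 0.0796 by limma), and 0.49 without control replicate 2. Vim, the other filament of Müller cells, read -0.02, -0.35 and -0.01 against 0.51, 0.32 and 0.28, a difference of 0.50 ± 0.29.

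The largest differences in the list were in secreted proteins. Edn2, endothelin 2, a signal that stressed photoreceptors send to Müller cells, read 0.36, -1.08 and 0.14 on the BSS arrays and 1.79, 1.65 and 1.70 on the DEX arrays. The DEX arrays were tightly grouped and all lay above the highest control, while control replicate 2 lay far below the other controls; without it the difference was 1.47. Its difference was 1.91 ± 0.87 (3.76-fold, unadjusted p = 0.0429 by limma). Serpina3n, a secreted protease inhibitor of the acute phase and the other printed promoter with a glucocorticoid-type match, read -0.40, -2.00 and -0.97 against 0.51, 0.95 and 0.48. Every DEX array lay above the highest control, and the difference was 1.77 ± 0.78 (unadjusted p = 0.036 by limma).

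Cp, the copper-binding ferroxidase ceruloplasmin, had little spread within either group. It read -0.18, -0.46 and -0.28 on the BSS arrays and 0.79, 0.94 and 0.74 on the DEX arrays, a difference of 1.13 ± 0.43 (2.19-fold, unadjusted p = 0.0174 by limma). Cebpd, a transcription factor of the acute phase that is also a glucocorticoid target, read -0.29, -0.45 and -0.30 against 0.99, 0.82 and 0.60, a difference of 1.15 ± 0.60. By the probe sets used, both genes lay apart by more than the range of either group. The differences over the 8 probe sets of Cp ranged from 0.10 to 1.13, and the 2 of Cebpd were 0.24 and 1.15. Lcn2, the iron-scavenging lipocalin, was higher on every DEX array but uneven, at 0.21, 1.57 and -0.18 against -0.62, -0.42 and -0.62, and Steap4, a metal reductase, shared the high DEX replicate 2 value of 1.61.

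Most genes of the Stat3 pathway did not separate the groups. Stat3 itself read -0.04, -0.12 and 0.13 on the BSS arrays and 0.75, 0.33 and 0.35 on the DEX arrays, a difference of 0.49 ± 0.21 (unadjusted p = 0.0327 by limma). Over its 4 probe sets the difference ranged from -0.16 to 0.51. The oncostatin M receptor Osmr (0.67 ± 0.37) and Socs3, the feedback inhibitor that Stat3 induces (0.65 ± 0.47), were the other members of the pathway list whose groups did not overlap, and Bcl3, a nuclear partner of NF-kappaB in the gliosis list, was too (0.61 ± 0.32). The ligands measured did not differ beyond their spread: Lif by 0.02 ± 0.16, Il6 by 0.04 ± 0.11 and Clcf1 by 0.05 ± 0.13. Other receptors and signal carriers of the list overlapped as well, among them Lifr, the receptor for Lif (-0.14 ± 0.14), and Stat5a, a related transcription factor (-0.11 ± 0.13). In all, 3 of the 17 measured pathway genes did not overlap (17.6%) and the list median was 0.02.

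The spread used by the test came largely from other groups. The median standard deviation of the gliosis genes was 0.17 on the DEX day 7 arrays and 0.16 on the BSS day 7 arrays, but 1.03 on the TAA day 7 arrays, which enter the pooled estimate. In a limma fit to the 6 arrays alone, 18 of the 22 gliosis genes (81.8%) reached an unadjusted p under 0.05 in the higher direction, where 6.27% of all genes did. Cp (adjusted p = 0.0302, SE 0.10) and Cebpd (adjusted p = 0.0307, SE 0.11) were then the 2 genes of 18194 (0.011%) past the adjusted threshold, both higher with DEX. That fit has 3 arrays on each side and no other estimate of spread than these arrays.

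**Figure D3:**
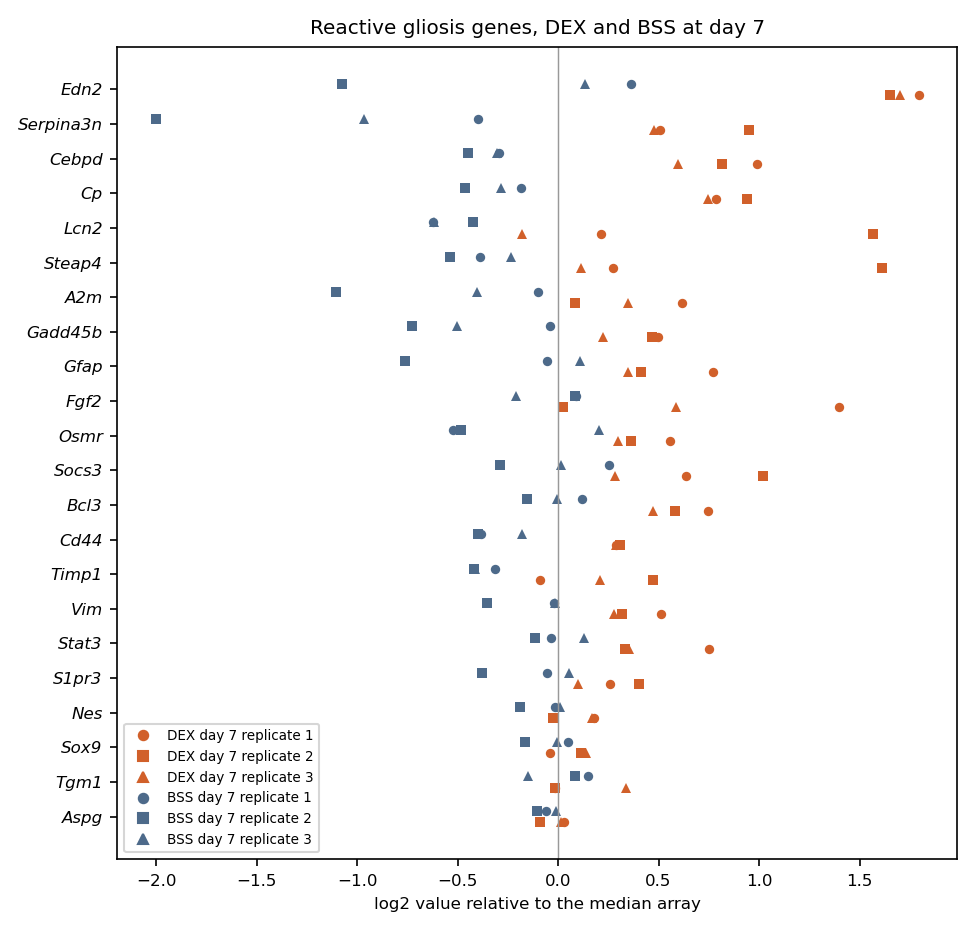
Log2 values relative to the median array (horizontal axis) of the 22 measured reactive gliosis genes (vertical axis, ordered by difference) on the 6 day 7 arrays; each point is 1 array, orange for DEX and blue for BSS, with the marker shape giving the replicate. For 17 genes all orange points lie to the right of all blue points, and BSS replicate 2 is the lowest point for Edn2, Serpina3n, A2m and Gfap.

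Markers of Müller cells as a type differed in part. Of 20 measured, 15 lay above 0 with a median of 0.12, 7 did not overlap in the higher direction (35%) and 1 in the lower (5%). Crym, a thyroid hormone binding protein, read -0.09, -0.21 and 0.04 against 0.65, 0.41 and 0.61 (0.65 ± 0.34), and the tetraspanin Cd9 read -0.26, -0.31 and -0.26 against 0.25, 0.01 and 0.09 (0.39 ± 0.20). The enzyme Glul, which makes glutamine and is a glucocorticoid target as well, differed by 0.08 ± 0.11. The water channel Aqp4 differed by 0.05 ± 0.27, with a sign that turned without DEX replicate 2, and the potassium channel Kcnj10 by 0.14 ± 0.18. Their groups overlapped.

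Microglial genes lay higher with DEX on 2 of the 3 arrays. Of 21 measured, 20 lay above 0 with a median of 0.41, and 5 did not overlap (23.8%). Over the list the arrays averaged 0.03, -0.14 and 0.16 for BSS and 0.53, 0.50 and 0.12 for DEX, so DEX replicate 3 lay within the controls. P2ry12, the purine receptor that marks resting microglia, read -0.06, -0.04 and 0.18 against 0.68, 0.57 and 0.29 (0.49 ± 0.20, unadjusted p = 0.0303 by limma). Sall1, a transcription factor of microglial identity, read 0.07, -0.05 and 0.08 against 0.72, 0.44 and 0.44 (0.50 ± 0.20, unadjusted p = 0.0228). Cx3cr1, the fractalkine receptor, differed by 0.53 ± 0.29, and Csf1r, the receptor on which microglia depend, by 0.50 ± 0.30 with overlap. Without DEX replicate 3 the count that did not overlap was 17 of 21, against 15.6% of all genes, and without BSS replicate 3 it was 15 of 21, against 11%. In the list of other leukocytes 7 of 15 lay above 0, with a median of -0.03.

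Complement genes lay mostly above 0, with 12 of 15 above and a median of 0.08, and 3 did not overlap (20%). Serping1, the inhibitor of C1, read 0.02, -1.12 and -0.31 against 0.54, 0.64 and 0.22 (0.94 ± 0.51). Cfi, the protease that inactivates C3b, read -0.40, -0.33 and -0.11 against 0.39, 0.07 and 0.09 (0.46 ± 0.38). For both, every DEX array lay above every control. C1qa, C1qb and C1qc differed by 0.41 ± 0.47, 0.57 ± 0.56 and 0.68 ± 0.53, with overlap. Without BSS replicate 3, or without DEX replicate 3, 7 of 15 did not overlap, against 11% and 15.6% of all genes.

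Interferon-stimulated genes were uneven between the DEX arrays, with list means of 0.14, 0.50 and 0.73, against 0.06, -0.15 and 0.27 on the BSS arrays. Of 25 measured, 22 lay above 0 with a median of 0.38, yet 4 did not overlap (16%). Ifit1, the antiviral RNA-binding protein whose promoter is printed above, read 0.49, -0.03 and 0.87 on the BSS arrays and 0.62, 1.48 and 2.30 on the DEX arrays. DEX replicate 1 lay below a control array, and the difference was 1.02 ± 0.53. Gbp2, an interferon-induced GTPase, differed by 0.96 ± 0.48 and Rsad2, viperin, by 0.77 ± 0.44, with the same low DEX replicate 1. Without that array the count that did not overlap was 18 of 25, against 10.5% of all genes, and without BSS replicate 3 it was 13 of 25, against 11%. Of 14 genes of antigen presentation by class I, 13 lay above 0 with a median of 0.25. The list means were -0.02, -0.09 and 0.16 on the BSS arrays and 0.25, 0.35 and 0.21 on the DEX arrays, so here DEX replicate 3 and not replicate 1 was the lowest. The members included the class I chain H2-D1 (0.44 ± 0.26) and the immunoproteasome subunits Psmb8 (0.45 ± 0.27) and Psmb9 (0.45 ± 0.29), for which every DEX array lay above every control. Those 3 are among 4 members without overlap (28.6%), a count that was 8 without BSS replicate 3 (11% of all genes) or without DEX replicate 3 (15.6%).

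Inflammatory mediators, which glucocorticoids are known to damp, showed no common direction. Of 24 measured, 15 lay above 0 with a median of 0.05. Groups did not overlap for 2 higher members (8.33%) and 1 lower (4.17%), against 7.21% and 7.08% of all genes. Il1b, the cytokine interleukin 1 beta, read 0.16, 0.11 and 0.05 on the BSS arrays and -0.08, -0.08 and -0.09 on the DEX arrays, a difference of -0.19 ± 0.10, and was the member whose DEX arrays were all lower. Icam1, an adhesion molecule for leukocytes, was higher on every DEX array (0.26 ± 0.15), and so was the chemokine Ccl5 (0.17 ± 0.16). Tnf differed by -0.05 ± 0.10 with overlap. Class II genes were mixed, with 4 of 6 above 0, and Cd74, the invariant chain, lower on every DEX array (-0.30 ± 0.25).

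Of 22 genes of VEGF signalling and angiogenesis 2 did not overlap, both higher (9.09%, near the 7.21% of all genes). Kdr, the main receptor for VEGF on endothelium, read -0.04, -0.12 and -0.01 on the BSS arrays and 0.42, 0.47 and 0.48 on the DEX arrays. The 3 DEX values were close together and all lay above the controls. The difference was 0.52 ± 0.18 (1.43-fold, unadjusted p = 0.00915 by limma), and it stayed between 0.49 and 0.54 when any 1 of the 6 arrays was left out. Tie1, an orphan receptor of endothelium, read -0.01, -0.02 and -0.15 against 0.05, 0.43 and 0.27 (0.31 ± 0.14), and Cdh5, the cadherin of endothelial junctions, read 0.10, 0.06 and 0.10 against 0.53, 0.17 and 0.28 (0.24 ± 0.11). Vegfa differed by -0.08 ± 0.15 with overlap, and so did the receptor Flt1 by 0.16 ± 0.19. Of 15 endothelial markers 11 lay above 0, 4 did not overlap in the higher direction (26.7%) and 1 in the lower, and the median was 0.05. Of 19 genes of the junctions between barrier cells 5 lay above 0, with a median of -0.04. Abcc9, a potassium channel subunit of pericytes, was higher on every DEX array (0.42 ± 0.17, unadjusted p = 0.0282 by limma).

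Of the collagen chains, 3 were high on DEX replicates 1 and 3 and not on replicate 2. Col3a1, a collagen of loose connective tissue, read 0.29, -0.02 and -0.05 on the BSS arrays and 2.80, -0.18 and 1.86 on the DEX arrays. DEX replicate 2 lay below every control, so the difference of 1.42 ± 0.44 rests on replicates 1 and 3. Without replicate 2 it was 2.26 ± 0.21 with an adjusted p of 0.000149 by limma, the only gene past the threshold there. Col1a2 (0.68 ± 0.25) and Col5a2 (0.42 ± 0.22) had the same pattern over the arrays. The 2 probe sets of Col3a1 differed by 0.05 and 1.42, and the 3 of Col1a2 ranged from -0.43 to 0.76. Col1a1, the partner chain of Col1a2, differed by 0.12 ± 0.12. Across 20 collagen chains 11 lay above 0, with a median of 0.02, and 2 did not overlap in each direction (10% each), the lower ones being Col4a3 (-0.30 ± 0.20) and Col5a1 (-0.11 ± 0.12). Of 24 matrix glycoproteins 2 were higher on every DEX array (8.33%): Mgp, an inhibitor of calcification (0.52 ± 0.22), and Sparc (0.42 ± 0.17). The basement membrane proteins Lama1 (-0.08 ± 0.14), Lama2 (-0.16 ± 0.15) and Nid2 (-0.19 ± 0.11) were lower on every DEX array (12.5%).

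Differences between the neuronal lists were not tested. Of 18 bipolar cell genes 15 lay above 0 (median 0.11), and 4 were higher without overlap (22.2%). Of 20 amacrine and horizontal cell genes 15 lay above 0 (median 0.14; 12 without control replicate 1) and 4 were higher without overlap (20%). Of 20 ganglion cell genes 10 lay above 0 (median 0.00) and 1 was higher without overlap (5%). Vsx1, a transcription factor of cone bipolar cells, read -0.01, -0.35 and -0.20 against 0.34, 0.14 and 0.13 (0.39 ± 0.14, unadjusted p = 0.0102 by limma). Cabp5, a calcium-binding protein of bipolar cells, differed by 0.44 ± 0.15 (unadjusted p = 0.00921), but control replicate 1 lay among the DEX arrays. Of 23 synaptic genes 14 lay above 0, and 6 were higher on every DEX array (26.1%). Among these 6 were the scaffold Bsn (0.40 ± 0.14) and the glutamate receptor Gria1 (0.39 ± 0.15). The 3 probe sets of Bsn ranged from -0.21 to 0.40, with a median of 0.002. Rims1 (-0.23 ± 0.16) and Rims2 (-0.24 ± 0.15), which organise the site of transmitter release, were lower on every DEX array (8.7%). With the mean of all probe sets of a gene, 3 of 23 synaptic genes were higher without overlap (13%) and 4 lower (17.4%). The shares of all genes were then 7.71% and 7.58%, so the balance of the synaptic list rests on the probe sets used.

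Rod genes lay slightly lower in median but not in mean. Among 21 measured, 14 lay below 0 and 7 above, with a median of -0.07. For 7 (33.3%) every DEX array lay below every control, where 7.08% of all genes did. The list means overlapped, at 0.04, -0.00 and -0.05 on the BSS arrays and 0.02, 0.00 and -0.03 on the DEX arrays. The mean difference was 0.0005. Gnat1, the rod transducin, read 0.07, -0.01 and 0.02 against -0.03, -0.06 and -0.03 (-0.07 ± 0.10). Pde6a, a subunit of the rod phosphodiesterase, read -0.10, -0.06 and -0.03 against -0.18, -0.23 and -0.31 (-0.18 ± 0.10), and Nrl, the transcription factor that sets rod fate, differed by -0.10 ± 0.12. Each of these differences is within 2 SE of 0. Grk1, the rhodopsin kinase, was the 1 rod gene higher on every DEX array, at 0.60 ± 0.24 (0.37 without BSS replicate 3). The retinal-reducing enzymes of photoreceptors Rdh11 (-0.35 ± 0.15, unadjusted p = 0.0312 by limma) and Rdh12 (-0.23 ± 0.11, unadjusted p = 0.0432), were lower on every DEX array, and Cyp26a1, which breaks down retinoic acid, was higher on every DEX array at 0.33, 0.44 and 0.44 against -0.06, -0.04 and -0.06 (0.45 ± 0.23).

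In the cell death list 3 of 16 genes did not overlap, all higher (18.8%). Tnfrsf1a, the receptor 1 for tumour necrosis factor, read 0.01, -0.27 and -0.09 on the BSS arrays and 0.42, 0.23 and 0.32 on the DEX arrays (0.44 ± 0.14, unadjusted p = 0.00729 by limma). Casp8, the caspase that acts below such receptors, read -0.08, -0.34 and -0.02 against 0.24, 0.10 and 0.47 (0.42 ± 0.15, unadjusted p = 0.0107). Bcl2, which opposes cell death, was also higher on every DEX array by the probe set used (0.25 ± 0.13). Its 5 probe sets ranged from -0.16 to 0.25, with a median of -0.03. Fas, another death receptor, differed by -0.07 ± 0.15 with overlap. Of 16 genes in the list 11 lay above 0, with a median of 0.10. Without control replicate 1, 8 of 16 lay above 0 (median 0.04), and with the mean of all probe sets of a gene 9 did (median 0.01). The direction of the list thus rests on that array and on the probe sets used.

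Markers of tissue next to the retina varied between single arrays. Melanosome genes were high on BSS replicate 1 alone: Tyrp1, an enzyme of melanin synthesis, read 2.39 there, against -0.31 and 0.01 on the other controls and 0.03, -0.77 and 0.30 on the DEX arrays. Its difference of -0.85 ± 0.54 was 0.00 without that array, and the median of 11 melanosome genes moved from -0.22 to 0.00. Pigment epithelium genes were low on BSS replicate 1 and on DEX replicates 1 and 2: Rpe65, the isomerase of the visual cycle, read -1.29, 0.31 and 0.27 against -1.02, -1.28 and -0.03. Of 18 measured, 13 lay below 0 with a median of -0.12, and 2 were lower without overlap (11.1%) and 1 higher (5.56%). Without BSS replicate 1 the median was -0.19. Then 10 of 18 were lower without overlap (55.6%, against 16.3% of all genes) and 2 higher (11.1%, against 15.5%). Crystallins, the proteins of the lens, averaged 0.14, -0.35 and -0.00 on the BSS arrays and 0.02, -1.18 and -1.49 on the DEX arrays. Cryba1 read -0.08, -0.63 and 0.08 against -0.21, -3.09 and -3.83. No member of these 2 lists, melanosome and crystallin, had groups that did not overlap. Without DEX replicate 1, 10 of 13 crystallins were lower without overlap (76.9%, against 11.3% of all genes), and without BSS replicate 2, 5 of 13 (38.5%, against 10.9%). In the fit to the 6 arrays alone 6 of 13 crystallins were lower at an unadjusted p under 0.05 (46.2%, against 3.47% of all genes). On the DEX arrays the list means were 0.21, -0.06 and 0.19 for collagen and 0.53, 0.56 and 0.36 for reactive gliosis. The part of neighbouring tissue in these or other differences was not tested.

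The genes ranked first by p were of another kind. The 10 genes of smallest p that were higher without overlap were Herc1, Slc43a2, Cep350, Plxna2, Utrn, Man1c1, Inpp5f, Atf7, Zfp664 and Oplah. Herc1, a giant ubiquitin ligase, read 0.27, -0.12 and -0.40 on the BSS arrays and 1.15, 0.93 and 0.67 on the DEX arrays (95% interval of the difference 0.59 to 1.41, unadjusted p = 8.37e-05 by limma). Utrn, utrophin, which links the cytoskeleton to the matrix, differed by 0.64 ± 0.16. Of these 10 genes the shortest spanned 25.9 kb of the genome and the longest 487.7 kb, while the 10 lower genes of smallest p, among them Slc25a5, a mitochondrial carrier, spanned 2.72 to 25.6 kb.

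A pattern by gene length ran through the 18029 genes with a known span (99.1%), divided into 5 classes of equal size. In the class of shortest span (median 3.35 kb) 5.88% were higher without overlap and 9.24% lower. In the class of longest span (median 118 kb) 10.3% were higher and 4.19% lower. The median difference went from -0.02 to 0.03. A list of 35 long transcripts had 26 members above 0 (median 0.19) and 12 higher without overlap (34.3%), and 27 ribosomal protein genes, which are short, had 25 below 0 (median -0.12) and 12 lower without overlap (44.4%). The gliosis genes spanned a median of 11.9 kb and the microglial genes 6.67 kb, against 20.3 kb over all genes. The part of gene span in the differences of these lists was not tested. Of 30 other probe sets for 12 of the 20 first-ranked genes, 24 had the same sign but only 2 reached 0.5 of the size. For 13 gliosis genes with several probe sets, 24 of 31 others had the same sign and 13 reached 0.5 of the size.

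**Figure D4:**
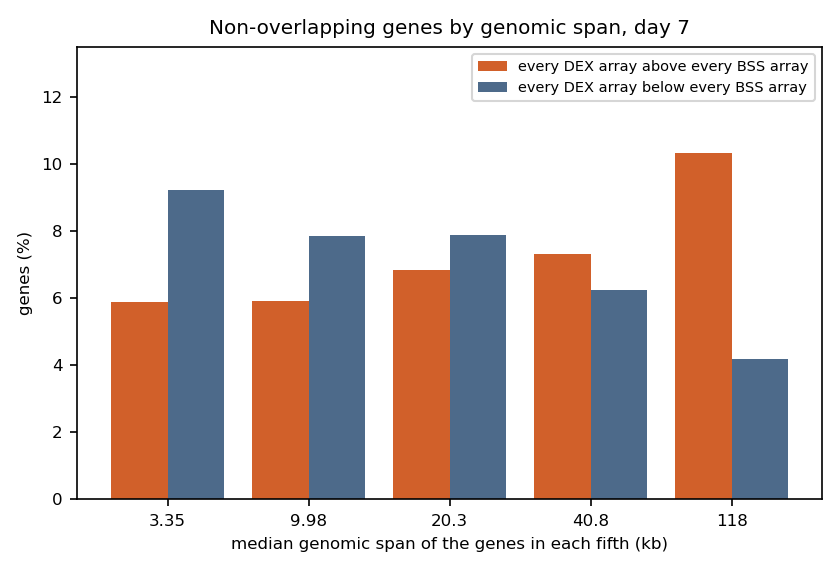
Share of genes (vertical axis, percent) for which every DEX array lay above every BSS array (orange) or below (blue) at day 7, in 5 equal classes of genes by genomic span (horizontal axis, median span in kb). The orange bars go from 5.88% to 10.3% and the blue bars from 9.24% to 4.19% between the shortest and longest class.

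The dexamethasone difference at day 7 was tested against that at day 30, which shares no array with it. No gene passed for the change of the effect between the days (0% called, smallest adjusted p 0.283 by limma), and 1558 genes had an unadjusted p under 0.05 (8.56%). The gliosis genes had a median of -0.07 at day 30 with 6 of 22 above 0 (42.1% of all genes), and 3 (13.6%) reached an unadjusted p under 0.05 in the lower direction, against 6.54% of all genes. The day 7 effect exceeded the day 30 effect for 22 of 22 (55.6% of all genes), with a median of 0.82, and 3 reached an unadjusted p under 0.05 (13.6%, against 5.37% of all genes). Gfap differed by -1.36 ± 0.40 at day 30, so its change between days was 2.10 ± 0.57 (unadjusted p = 0.00172, adjusted p = 0.406 by limma). Serpina3n changed by 3.45 ± 1.10 (adjusted p = 0.421), from a day 30 difference of -1.69 ± 0.78. Edn2 and Cp were not below the controls at day 30, at 0.48 ± 0.87 and 0.08 ± 0.43.

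Microglial and interferon genes also lay on opposite sides at the 2 days. Microglial genes had a median of -0.33 at day 30 with 2 of 21 above 0, and 6 of 21 (28.6%) reached an unadjusted p under 0.05 for a higher effect at day 7. Interferon genes had a median of -0.29 at day 30 with 1 of 25 above 0, and 7 of 25 (28%) did so. Kdr differed by -0.28 ± 0.18 at day 30, a change of 0.80 ± 0.25 (adjusted p = 0.413). The day 30 control arrays were themselves far apart, with list means for gliosis of -0.03, -0.67 and 0.23 and for microglia of 0.33, -0.52 and 0.45. In a fit to the 12 arrays of these groups alone, 10 genes passed, among them Gfap (adjusted p = 0.0343 by limma) and Kdr (adjusted p = 0.0283).

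**Figure D5:**
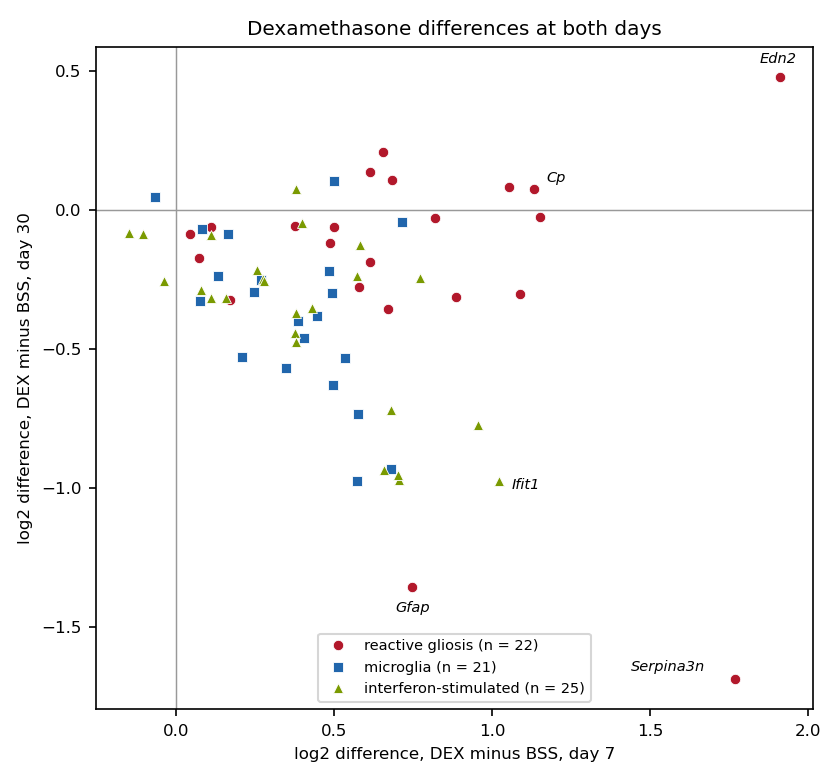
Log2 difference, DEX minus BSS, at day 7 (horizontal axis) and day 30 (vertical axis) for 22 reactive gliosis, 21 microglial and 25 interferon-stimulated genes; each point is 1 gene, and the days share no array. Most points lie to the right of 0 and below 0, with Gfap at 0.75 and -1.36 and Edn2 at 1.91 and 0.48.

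Triamcinolone, another glucocorticoid, was compared with dexamethasone directly at day 7; the doses are not given, so the compounds cannot be compared dose for dose, and this comparison shares the DEX arrays with the one above. Folh1, a folate carboxypeptidase, was lower with dexamethasone than with triamcinolone by 1.77 on the log2 scale (SE 0.26, adjusted p = 0.0473 by limma), the 1 gene of 18194 past the threshold (0.0055%). No gene passed with a replicate block (smallest adjusted p 0.17), with arrays centred (0.054), with robust moderation (0.0595), with every probe set tested (0.0796), with the compared arrays only (0.765), or without any 1 of the 6 arrays other than TAA replicate 3 (0.0992 to 0.338). Folh1 is named by that result and differed from BSS by 0.10 ± 0.26 with dexamethasone. Over all genes 6.47% had an unadjusted p under 0.05 and 49.5% lay above 0. Of 30 glucocorticoid targets 27 were lower with dexamethasone than with triamcinolone, with a median of -0.29, and 11 (36.7%) reached an unadjusted p under 0.05, against 2.73% of all genes. The means of this list were 0.665, 0.665 and 0.154 on the TAA arrays and 0.03, 0.08 and -0.01 on the DEX arrays. TAA replicate 3 thus lay nearer to the DEX arrays than to the other TAA arrays. Fkbp5 differed by -0.74 ± 0.29 and Zbtb16 by -0.67 ± 0.16 in this comparison, neither past the adjusted threshold. Microglial genes went the other way, with 20 of 21 higher with dexamethasone (median 0.33). Of these genes 7 (33.3%) reached an unadjusted p under 0.05, against 3.74% of all genes. Their list means were -0.50, 0.53 and -0.23 on the TAA arrays and 0.53, 0.50 and 0.12 on the DEX arrays. TAA replicate 2 thus lay among the DEX arrays. Gliosis genes did not separate the drugs, with 8 of 22 higher with dexamethasone and a wide spread over the triamcinolone arrays, whose list means were 0.55, 1.64 and -0.03.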

How the data were processed

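Whole retinas of 18 mouse samples were measured on Affymetrix arrays after two-cycle cRNA labelling, per the labels' protocols. The authors deposited values processed with RMA, per the submitters' processing notes, whose version, settings and filters are not given in the sources used here. The deposited values are taken as log2, from RMA's convention. All 45101 probe sets had an 18-array median of 0 (to 5e-07): the values are centred and hold no level or signal over background. No array carries a batch in the labels.

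Of 45101 probe sets 34945 named 1 gene in the platform annotation (34741 matched the RefSeq table), 932 named several, 9160 are unnamed here and 64 were controls. Where several probe sets named a gene (9009 genes), the most variable by interquartile range was taken without regard to treatment. A linear model with a mean for every group was then fitted to all 18194 genes by limma 3.58.1 (R 4.3.3; 12 residual and 5.21 prior degrees of freedom, median residual SD 0.179), and p-values were adjusted by Benjamini-Hochberg with a threshold of 0.05. The number of arrays limits the precision. Figures were drawn with matplotlib 3.10.9 in Python 3.11.15. The fit was tested on simulated data, where 0.0489% of unchanged genes were called.

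The 44 gene lists name 822 genes, of which 743 were measured, and are described by counts and medians with no set test. The members and lists were chosen with earlier results of these data known. Genes named are those of smallest p without overlap (up to 10 per direction), a panel of 10 genes, up to 4 members of smallest p per list, the widest-ranging members of 5 lists, and further list members on which a result turns, some of them chosen after their values were seen; predicted genes and clone names were not named. Folh1 was named after its values were seen. Alternatives were a fit to the compared arrays only, array weights, quantile normalization, centring, other treatments of probe sets, a filter on range, robust moderation, a replicate block and leaving out each replicate.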

Additional observations from a re-analysis of the deposited data

How the results depend on the processing

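Counts of genes past the adjusted threshold depended on how the spread was estimated. For DEX against BSS at day 7 the count of 0 became 164 with array weights (148 higher, 16 lower) and 2 in the fit to the compared arrays only, and leaving out 1 replicate gave 0 to 1. For the change between days it became 1728 with array weights and 10 in the compared arrays only, and 0 to 1 without 1 replicate. For DEX against TAA the count of 1 became 747 with array weights and 2 with quantile normalization. It became 0 with each array centred on its median, with robust moderation, with every probe set tested, with only the compared arrays and with the replicate block, and it was 0 to 5 without 1 replicate (5 without TAA replicate 3). With the replicate number as a replicate block the counts of the day 7 and between-day comparisons stayed at 0. The smallest adjusted p by limma was then 0.0673 at day 7, against 0.79 in the main fit, and 0.238 between days. Deviations of same-numbered arrays at day 7 correlated at 0.15, 0.15 and 0.04, and those of other-numbered arrays at -0.18 to 0.09. The main fit did not pair the numbers, and these values do not settle whether the numbers pair the samples. The 2600 genes without overlap became 1390 among the more variable genes, 5042 of all probe sets, and 3908 to 5772 without 1 replicate, where fewer arrays are compared. The difference of Tsc22d3 ranged from -0.15 to 0.041 over the fits that leave out 1 array. The difference of Vegfa was 0.018 with the mean of its probe sets. The difference of Aqp4 ranged from -0.019 to 0.12 over the fits that leave out 1 array. The difference of Tyrp1 ranged from -1.35 to 0.0024 over the fits that leave out 1 array. The difference of Glul was -5e-04 with the mean of its probe sets. The difference of Lif ranged from -0.048 to 0.11 over the fits that leave out 1 array. The difference of Il6 ranged from -0.012 to 0.087 over the fits that leave out 1 array. The difference of Il6 was -0.003 with array weights. The difference of Stat5a ranged from -0.22 to 0.034 over the fits that leave out 1 array. The difference of Clcf1 ranged from -0.045 to 0.17 over the fits that leave out 1 array. The difference of Col5a1 was 0.0077 with the mean of its probe sets. Single probe sets of some named genes had the other sign. The differences over probe sets ranged from -0.08 to 0.41 for Bcl6 and from -0.03 to 0.28 for Mt1. They ranged from -0.04 to 0.67 for Osmr, from -0.10 to 0.53 for Cx3cr1 and from -0.04 to 0.24 for Cdh5. For Sparc the range was -0.03 to 0.68 and for H2-D1 -0.07 to 0.44. Among the first-ranked genes it was -0.05 to 0.64 for Utrn and -0.29 to 0.69 for Inpp5f. The causes were not tested. With 3 arrays a group and centred values, signal over background is unknown, and differences of dim genes cannot be told from those of bright ones.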
